A study of Homo sapiens with 4 samples.

Results

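FOXK2 binding was examined at 8 genes of insulin and insulin-like growth factor signalling: the receptors INSR and IGF1R, the adaptors IRS1 and IRS2, the PI3K subunits PIK3CA and PIK3R1, and the kinases AKT1 and AKT2. A peak belonged to a gene when the deposited annotation, which names the gene with the nearest transcription start site (TSS), gave that gene's name. In this way 16 of 12471 peaks of replicate 1 and 22 of 27281 peaks of replicate 2 were assigned to the 8 genes, out of 20052 protein-coding genes. The data were FOXK2 ChIP-seq peak lists of 2 biological replicates of OVCAR5, an established ovarian cancer cell line that GEO's labels describe as ascites-derived and high grade serous, grown in RPMI with serum and immunoprecipitated with an antibody to FOXK2. Neither replicate carried a treatment or genetic change according to the labels, so there was 1 condition in 1 cell line and no comparison between conditions. Of 4 labelled samples, the 2 input libraries were not analysed here, and the read depth of each library was unknown.

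Insulin and the insulin-like growth factors bind receptor tyrosine kinases at the cell surface. The activated receptors phosphorylate IRS adaptor proteins, which recruit phosphatidylinositol 3-kinase (PI3K) through its regulatory subunit. The lipid that PI3K makes draws AKT to the membrane, where AKT is phosphorylated and goes on to act on regulators of growth, glucose uptake and survival, among them the FOXO forkhead factors. FOXK2 is itself a forkhead transcription factor, a family whose DNA-binding domain recognises short sites such as TGTTTAC.

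The sequences under the peaks on which the results turned were read from hg38 and are given on its plus strand, 5′ to 3′. Those at the IGF1R, INSR and PIK3CA starts are limited to the site and its flanks, because the peaks run into transcribed leader sequence, and the others are whole replicate 2 peaks. Capitals mark TGTTTAC or its reverse complement GTAAACA, except at PIK3R1, where they mark the AP-1 sites TGACTCA and TGAGTCA.
IGF1R start, chr15:98648572-98648600: gctggggctctTGTTTACcagcattaact
INSR start, chr19:7294342-7294370: tgctcgggcccGTAAACAacgcggcccgt
PIK3CA start, chr3:179148197-179148225: agttcgttgttTGTTTACacgatgtgagc
IRS1 intron 1, chr2:226756243-226756499: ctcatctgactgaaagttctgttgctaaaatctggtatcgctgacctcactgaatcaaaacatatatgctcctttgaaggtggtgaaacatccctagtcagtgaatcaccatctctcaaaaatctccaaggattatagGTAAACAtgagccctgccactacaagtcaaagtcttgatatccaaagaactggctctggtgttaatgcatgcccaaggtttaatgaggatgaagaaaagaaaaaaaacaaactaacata
IRS2 promoter, chr13:109786769-109787025: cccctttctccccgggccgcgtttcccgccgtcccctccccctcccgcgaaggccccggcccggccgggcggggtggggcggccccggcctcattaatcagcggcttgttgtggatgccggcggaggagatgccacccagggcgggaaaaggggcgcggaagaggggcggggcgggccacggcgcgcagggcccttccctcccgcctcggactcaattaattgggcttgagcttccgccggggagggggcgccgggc
AKT2 promoter, chr19:40285553-40285809: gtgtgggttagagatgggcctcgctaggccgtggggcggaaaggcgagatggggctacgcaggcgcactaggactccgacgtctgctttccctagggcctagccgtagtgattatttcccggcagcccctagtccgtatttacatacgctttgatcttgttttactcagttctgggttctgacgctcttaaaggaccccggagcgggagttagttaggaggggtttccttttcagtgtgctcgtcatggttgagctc
PIK3R1 distal, chr5:68549321-68549577: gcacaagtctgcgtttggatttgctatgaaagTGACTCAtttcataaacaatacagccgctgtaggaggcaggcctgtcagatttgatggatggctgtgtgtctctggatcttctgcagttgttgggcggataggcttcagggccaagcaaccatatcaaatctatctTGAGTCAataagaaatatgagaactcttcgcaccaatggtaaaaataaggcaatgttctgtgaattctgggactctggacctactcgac
INSR and IRS1 are transcribed from the minus strand and IGF1R and PIK3CA from the plus strand, so the capitals in these genes read TGTTTAC on the strand of the gene's own transcript. The heptamer at the start of INSR was centred 58 bp past the start of the gene in GENCODE, that of IGF1R 47 bp past it and that of PIK3CA 97 bp past it. The whole IRS2 and AKT2 promoter peaks held no TGTTTAC on either strand.

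Peaks were assigned to 6 of the 8 genes in replicate 1 (75.0%, Wilson 95% interval 40.9% to 92.9%), against 31.3% of all protein-coding genes. In replicate 2 they were assigned to 7 of 8 (87.5%, 52.9% to 97.8%), against 51.7% of all. INSR, IGF1R, IRS1, IRS2, PIK3R1 and AKT2 had peaks in both replicates, as did 28.6% of all genes, and in each of the 6 at least 1 peak overlapped between the replicates by 1 bp or more, as in 25.5% of all genes. PIK3CA had a peak in replicate 2 alone and AKT1 had none in either. The intervals cover counting error only. The 8 genes were chosen and not drawn at random, so neither these intervals nor those below test them against all genes.

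**Figure D1:**
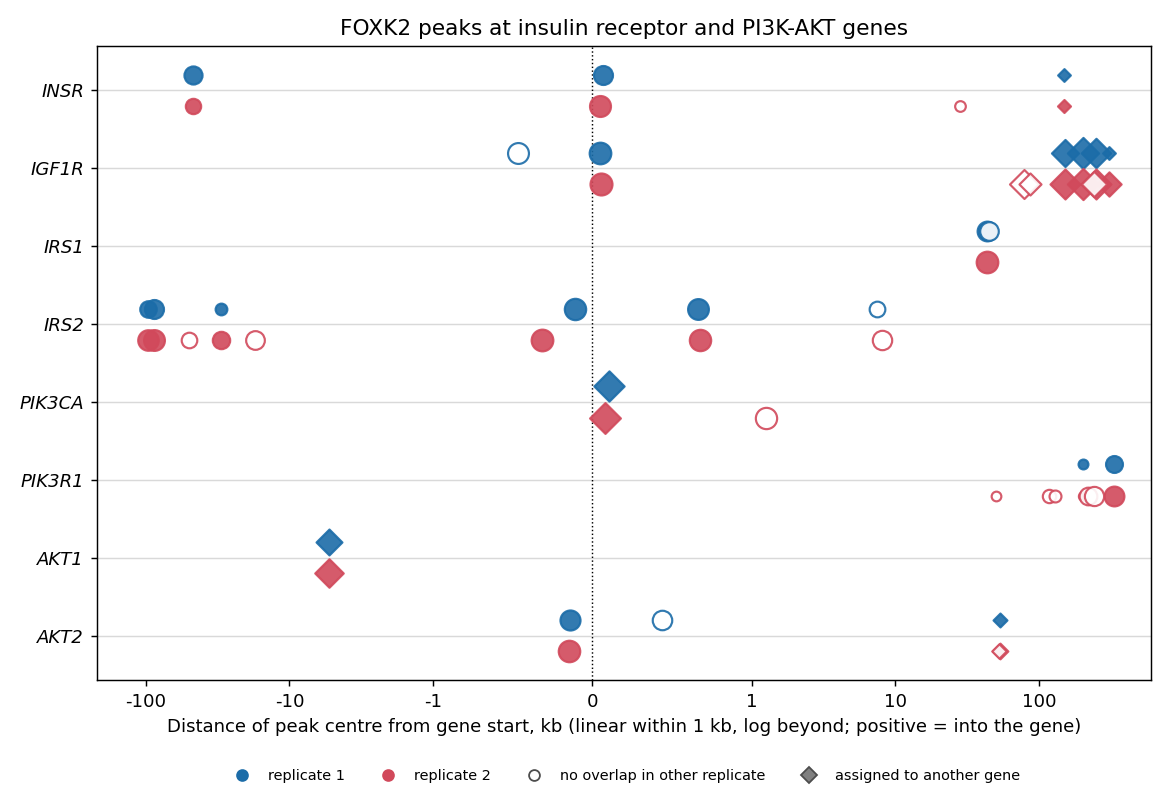
Distance of each peak centre from the start of its gene in kb (horizontal axis, linear within 1 kb of the start and logarithmic beyond), with 1 row per gene, replicate 1 in blue and replicate 2 in red. Larger symbols have a higher score percentile in their own list, open symbols have no overlapping peak in the other replicate, and diamonds are peaks in the gene or up to 10000 bp upstream that the annotation gave to another gene. Filled circles lie at the starts of INSR, IGF1R, IRS2 and AKT2 in both replicates, and at PIK3CA and AKT1 the filled symbols are diamonds.

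The insulin receptor gene INSR (chr19:7112255-7294414, minus strand) carried a peak at its promoter in both replicates. This peak lay 48 bp upstream of the annotated TSS in replicate 1 and 63 bp upstream in replicate 2, and its centre fell in exon 1 of 22 of the GENCODE transcript. Its score was 7.55 in replicate 1 (rank 3663, score percentile 69.8) and 15.3 in replicate 2 (rank 3113, percentile 88.5), where the score is HOMER's normalised tag count of the peak. Because many scores tie, the percentile is the mean of the share of the same list that scored lower and the share that scored no higher. Scores are scaled to their own library and were compared only within a list. Coordinates are those of hg38, and distances to the TSS are those of the deposited annotation, whose TSS can be an internal start and so differ from the start of the gene in GENCODE. The heptamer lay 6 bp from the centre of the peak in replicate 1 and 9 bp from it in replicate 2. A further pair of INSR peaks lay intergenically, 47.0 kb upstream in replicate 1, at scores of 6.79 and 6.39 and with no TGTTTAC, and was nearer to a transcript start of ARHGEF18, 7680 bp away in replicate 1. The remaining INSR peak was in intron 2 of replicate 2 alone, within a LINE element, and was weak at a score of 4.31 (percentile 11.5).

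IGF1R (chr15:98648539-98964530, plus strand), the receptor for the insulin-like growth factors, held the strongest shared promoter peak of the 8 genes. It was centred 45 bp past the TSS in replicate 1 and 51 bp past it in replicate 2, with the heptamer 2 bp and 4 bp from the centre. The score was 14.9 in replicate 1 (rank 603, percentile 95.1) and 33.6 in replicate 2 (rank 408, percentile 98.5). Replicate 1 had a peak 464 bp upstream of the TSS as well, at a score of 10.8 (percentile 87.5) and without the heptamer, for which replicate 2 had no counterpart. These centres were 509 bp apart. Neighbouring peaks were this close or closer in 18 of 12445 pairs in replicate 1 and in 8 of 27253 in replicate 2. The smallest spacing in the whole list was 436 bp in replicate 1 and 459 bp in replicate 2, so 509 bp was near that floor.

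The strongest peak anywhere in the 8 genes lay inside IGF1R but was assigned to MIR4714, a microRNA gene. It stood in a CpG island in intron 2, and its score was 39.6 in replicate 1 (rank 35, percentile 99.7) and 81.6 in replicate 2 (rank 28, percentile 99.9). That was 2.66 times the score of the IGF1R promoter peak in replicate 1 and 2.43 times in replicate 2. The 95% counting intervals of the intron and promoter scores did not overlap in either list, running from 34.4 to 45.4 against 11.8 to 18.6 in replicate 1 and from 75.0 to 88.8 against 29.4 to 38.3 in replicate 2. IGF1R contained 3 other pairs assigned elsewhere. One stood in intron 2 at 151 kb, with scores of 7.73 and 17.0 in replicates 1 and 2. Another stood in intron 4 at 248 kb, with scores of 10.6 and 17.3, and the last in intron 20 at 306 kb, with 3.77 and 7.73. In all, 4 such peaks were in the gene in replicate 1 and 7 in replicate 2, and the 4 in replicate 1 were all overlapped in replicate 2.

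IRS1 (chr2:226731312-226799820, minus strand), which couples both receptors to PI3K, had no promoter peak. Its shared peak was in its intron, 42.4 kb past the TSS, with a score of 8.49 in replicate 1 (rank 2809, percentile 76.9) and 21.6 in replicate 2 (rank 1270, percentile 95.3). The heptamer lay 22 bp from the centre in replicate 1 and 13 bp in replicate 2. A second intron peak of replicate 1, 43.6 kb past the TSS, scored 7.17 and held TGTTTAC only near its edge, 95 bp from the centre.

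IRS2 (chr13:109752695-109786583, minus strand), the other main adaptor of the pair, was assigned the most peaks of the 8 genes. It had 6 in replicate 1, a number that 0.254% of protein-coding genes reached, and 8 in replicate 2, which 0.693% reached. By position, in the gene or up to 10000 bp upstream, IRS2 had 3 peaks in each replicate, while IGF1R had 6 in replicate 1 and 8 in replicate 2. Of the peaks assigned to IRS2 by name, 5 in each replicate overlapped a peak of the other. The promoter peak scored 12.8 in replicate 1 (rank 931, percentile 92.4) and 22.8 in replicate 2 (rank 1118, percentile 95.9). These intervals touched only at their ends, overlapping by 26 bp with centres 208 bp apart, 122 bp upstream of the TSS in replicate 1 and 330 bp upstream in replicate 2. The next pair overlapped along the whole replicate 1 peak and lay in exon 1, 644 bp past the TSS in replicate 1, at scores of 10.6 and 18.3. It was nearer to a transcript start of a noncoding gene, 92 bp away in replicate 1 and 78 bp in replicate 2. Neither of these proximal pairs held TGTTTAC.

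Upstream of IRS2, 3 intergenic pairs each held TGTTTAC in both replicates. At 88.5 kb the scores were 7.55 and 14.7 in replicates 1 and 2. At 96.9 kb they were 5.85 and 13.5, and at 30.1 kb in replicate 1 they were 4.34 and 7.88. All 3 pairs scored below the exon 1 pair in their own list. Each of them lay nearer to a transcript start of another gene than to that of IRS2, at 40023, 31637 and 11346 bp in replicate 1 in the same order. The other IRS2 peaks had no counterpart: an intron peak of replicate 1 that scored 5.47 and held TGTTTAC, and in replicate 2 an intron peak at 10.4 and intergenic peaks at 9.37 and 6.54, of which the last held TGTTTAC.

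PIK3CA (chr3:179148114-179240093, plus strand), the alpha catalytic subunit of PI3K, had 1 assigned peak, in replicate 2 alone. It was in intron 1, 845 bp past the TSS, with a score of 17.5 (rank 2255, percentile 91.6) and the heptamer 14 bp from its centre. A shared peak at the start of the gene was assigned to LOC101928739, a neighbouring transcript. That peak was centred 105 bp past the start of PIK3CA in replicate 1, at a score of 13.2 (rank 879, percentile 92.9), and 80 bp past it in replicate 2, at 26.0 (rank 792, percentile 97.1). Both intervals held TGTTTAC and the related TGTTTGT. By position alone, PIK3CA therefore had a shared peak at its start that the assignment by name did not count.

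PIK3R1 (chr5:68215740-68301821, plus strand), the regulatory subunit, showed the weakest and most distant binding of the genes with shared peaks. It had 2 peaks in replicate 1, a number that 9.33% of genes reached, and 7 in replicate 2, which 1.13% reached. None was in the promoter class. By position, in the gene or up to 10000 bp upstream, PIK3R1 had only the replicate 2 peak in intron 2. Its best pair lay intergenically, 257 kb past the TSS, at a score of 6.04 in replicate 1 (rank 5777, percentile 52.2) and 11.3 in replicate 2 (rank 6121, percentile 77.2). It lay nearer to a transcript start of another gene, 15842 bp away in replicate 1, and held no TGTTTAC but TGTTTAT and 2 AP-1 sites in each replicate. The other pair, 128 kb past the TSS, overlapped by 85 bp and was among the weakest of either list, with a score of 3.96 (percentile 7.54) in replicate 1 and 3.87 (percentile 4.64) in replicate 2. Of the 5 peaks of replicate 2 alone, scores ran from 4.02, in a LINE element of intron 2, to 10.1 at 164 kb, where TGTTTAC lay 3 bp from the centre.

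AKT1 (chr14:104769349-104795751, minus strand), the broadly expressed AKT kinase, had no peak by name. The nearest pair was at the promoter of ZBTB42, a zinc finger gene, centred 5268 bp upstream of the start of AKT1 in replicate 1 and 5330 bp upstream in replicate 2. Its scores were 6.98 (percentile 64.0) and 12.2 (percentile 80.8), and it held TGTTTAC.

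AKT2 (chr19:40230317-40285536, minus strand), the AKT kinase best known for insulin-stimulated glucose uptake, had a shared promoter peak 282 bp upstream of the TSS in replicate 1 and 286 bp upstream in replicate 2. It scored 8.87 in replicate 1 (rank 2511, percentile 79.3) and 19.5 in replicate 2 (rank 1670, percentile 93.8), with no TGTTTAC. A peak in the CpG island of intron 1, 297 bp past the TSS, was in replicate 1 alone at a score of 8.11. Weak peaks in the last exon, which is exon 14, were assigned to CNTD2, with scores of 3.96 in replicate 1 and of 4.46 and 4.16 in replicate 2.

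Ordered by the best shared peak assigned by name, IGF1R came first and IRS2 second in both lists, and INSR and PIK3R1 came last. IRS1 and AKT2 lay between them and changed places, with AKT2 higher in replicate 1 and IRS1 higher in replicate 2. The place of IRS2 rested on its promoter pair, which overlapped by 26 bp: with the exon 1 pair in its place, at 10.6 and 18.3, IRS2 stayed second in replicate 1 but fell below IRS1 and AKT2 in replicate 2. In replicate 1 the 95% counting intervals of neighbours in this order all overlapped, from 11.8 to 18.6 at IGF1R down to 4.13 to 8.52 at PIK3R1. In replicate 2 the interval of IGF1R, 29.4 to 38.3, lay clear of that of IRS2, 19.3 to 26.7, while the other neighbours overlapped. IGF1R scored 2.55 times the median of its list in replicate 1 and 4.61 times in replicate 2. PIK3R1 stood near the median in replicate 1, at 1.03 times, and above it in replicate 2, at 1.55 times. When the 6784 gene names with a shared peak were ordered by their best pair's average percentile, IGF1R took place 490 and PIK3R1 place 4010. The 3 gene names with the percentiles nearest to those of IGF1R in both lists were EGLN1, with scores of 14.9 and 33.3, LOC102725191, with 14.9 and 33.0, and NCOA5, with 14.9 and 34.7.

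**Figure D2:**
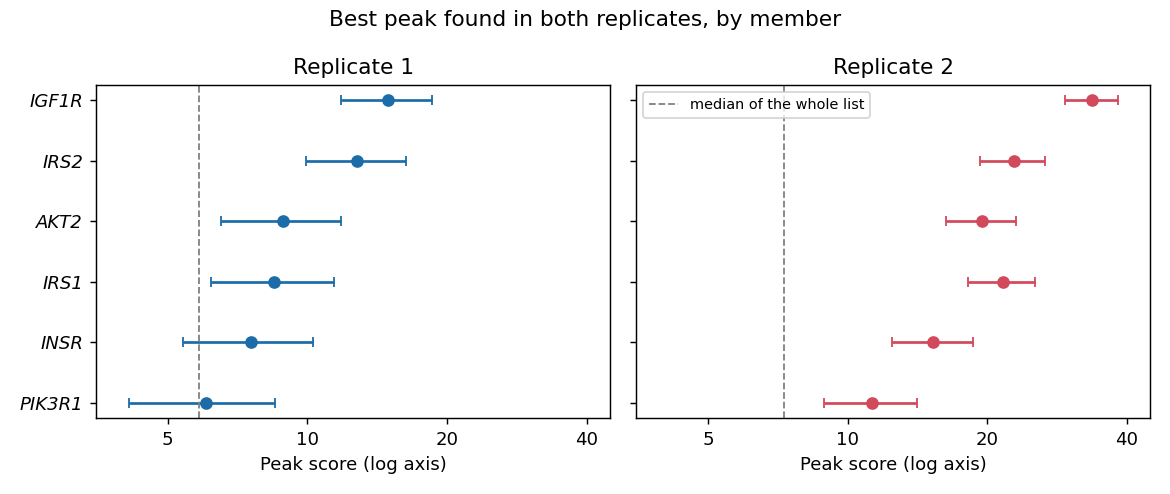
Score of the best peak found in both replicates for the 6 genes that have one (points, logarithmic axis), with exact 95% counting intervals (bars), in replicate 1 (left) and replicate 2 (right). The dashed line is the median score of the list, 5.85 in replicate 1 and 7.29 in replicate 2, and in replicate 1 the bars of INSR and PIK3R1 cross it.

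**Figure D3:**
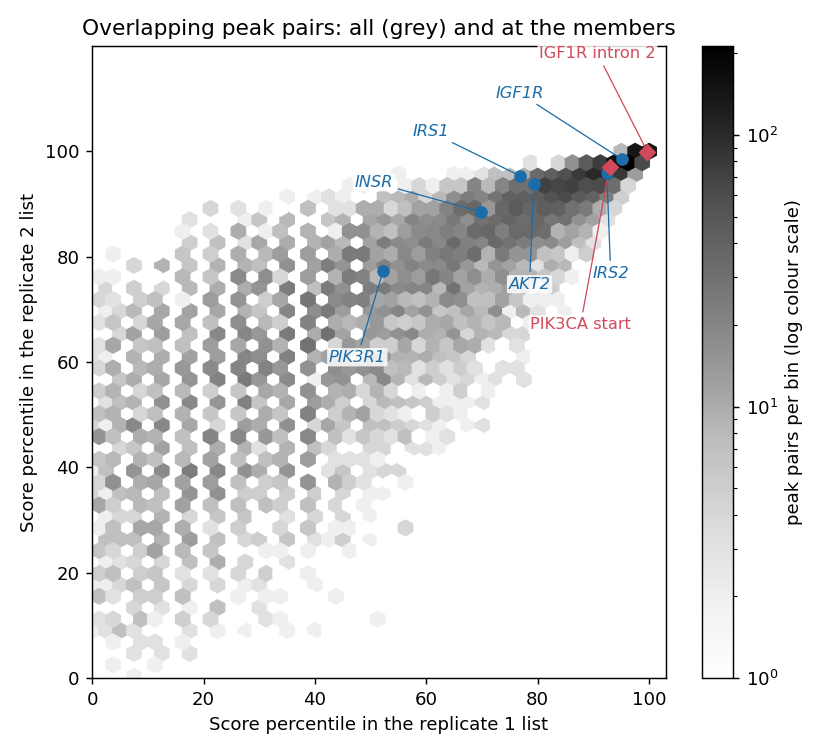
Score percentile in replicate 1 (horizontal) and in replicate 2 (vertical) of all overlapping peak pairs, with the number of pairs per bin in grey on a logarithmic colour scale. Blue points are the best pair of each gene by name and red diamonds are the IGF1R intron 2 pair and the PIK3CA start pair, which the annotation gave to other genes. The IGF1R intron 2 pair sits in the upper right corner at percentiles of 99.7 and 99.9.

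Of the 16 peaks of the 8 genes in replicate 1, 12 overlapped a replicate 2 peak (75.0%, Wilson 95% interval 50.5% to 89.8%), close to the 74.9% of all peaks of that list. Of the 22 peaks in replicate 2, 12 overlapped a replicate 1 peak (54.5%, 34.7% to 73.1%), against 34.2% of all. When at least 50% of the shorter peak had to overlap, the latter share was 45.5%, 10 of 22 (26.9% to 65.3%), against 32.8% of all. Peaks without a counterpart in replicate 2 were mostly at PIK3R1 and IRS2, with 5 at the former and 3 at the latter, and INSR and PIK3CA had 1 each. Promoter peaks that overlapped between replicates were found at 4 of the 8 genes, namely INSR, IGF1R, IRS2 and AKT2 (50%, 21.5% to 78.5%), against 9.03% of all protein-coding genes.

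TGTTTAC, sought on either strand up to 100 bp from a peak's centre, was in 8 of the 16 peaks in replicate 1 (50%, 28.0% to 72.0%), against 30.5% of all peaks. In replicate 2 it was in 10 of 22 (45.5%, 26.9% to 65.3%), against 28.2% of all. Both intervals contained the background share. The sites were unevenly spread over the genes: IRS2 held 4 in each replicate, all outside its promoter and exon 1, and AKT2 held none. Promoter-class peaks are rich in G and C, with a median of 63.5% over all such peaks of replicate 1 and 69.7% in those of the 8 genes, and 14.4% of all of them held TGTTTAC, compared with 35.0% of the peaks of other classes. Among the 8 genes, 2 of 5 promoter-class peaks and 6 of 11 others held it in replicate 1. An AP-1 site was in 16.4% of all replicate 1 peaks and 16.6% of all replicate 2 peaks. At the 8 genes it was in 1 peak of replicate 1 and 3 of replicate 2, and all 4 were assigned to PIK3R1.

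The RefSeq promoter windows (GRCh38.p14), which run from 250 bases before to 50 after each start, were also searched for TGTTTAC. All 8 genes matched, with 13 windows, and 1 window held it, that of PIK3CA, while it was in 3.42% of 35116 windows genome-wide. The IGF1R and INSR sites fell just outside: the IGF1R window ended at 98648588, inside the site at chr15:98648583-98648589, and the INSR window began at 7294365, beyond the site at chr19:7294353-7294359.

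Longer genes more often had a peak. The share of protein-coding genes with a peak that overlapped between replicates rose from 14.4% in the shortest of 4 equal groups by gene length to 21.3%, 26.9% and 39.3% in the longer groups. INSR, IGF1R, IRS1, PIK3CA and PIK3R1 were in the longest group and IRS2, AKT1 and AKT2 in the one before it, so each of the 8 belonged to a group above the 25.5% of all genes. Assignment to the nearest TSS also mattered. Within the bodies of the 8 genes lay 14 peaks in replicate 1, of which 7 carried another gene's name, and 19 in replicate 2, of which 11 did, while for all protein-coding genes 30.6% and 32.4% did. With peaks counted by position, in the gene or up to 10000 bp upstream, 7 of 8 genes had a shared peak (87.5%, 52.9% to 97.8%), against 29.1% of all genes. These were not the same genes as by name: PIK3R1 dropped out, PIK3CA entered through the peak at its start, and AKT1 entered only through the ZBTB42 promoter peak.

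Beyond the 8, a list of 77 other genes of the pathway was sorted into 7 roles. A shared peak was assigned to 38 of them (49.4%), next to the 25.5% of all protein-coding genes. The share was 58.3% of 12 other PI3K subunits, 62.5% of 8 genes of the AKT step and the kinases that activate it, 56.2% of 16 phosphatases and inhibitors, and 55.6% of 18 AKT substrates and outputs. It was 30.0% of 10 ligands and binding proteins, 33.3% of 3 receptors and partners, and 30.0% of 10 adaptors. With the 8 genes put back into their roles, a shared peak was at 3 of 5 receptors and partners, 5 of 12 adaptors, 8 of 14 PI3K subunits and 6 of 10 genes of the AKT step. No difference between the roles was tested. Promoter peaks that overlapped between replicates were at 13 of the 77, or 16.9%, beside the 9.03% of all genes. They were 5 substrates and outputs, 3 phosphatases and inhibitors, 2 PI3K subunits, and 3 of the genes listed with AKT and the kinases that activate it.

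**Figure D4:**
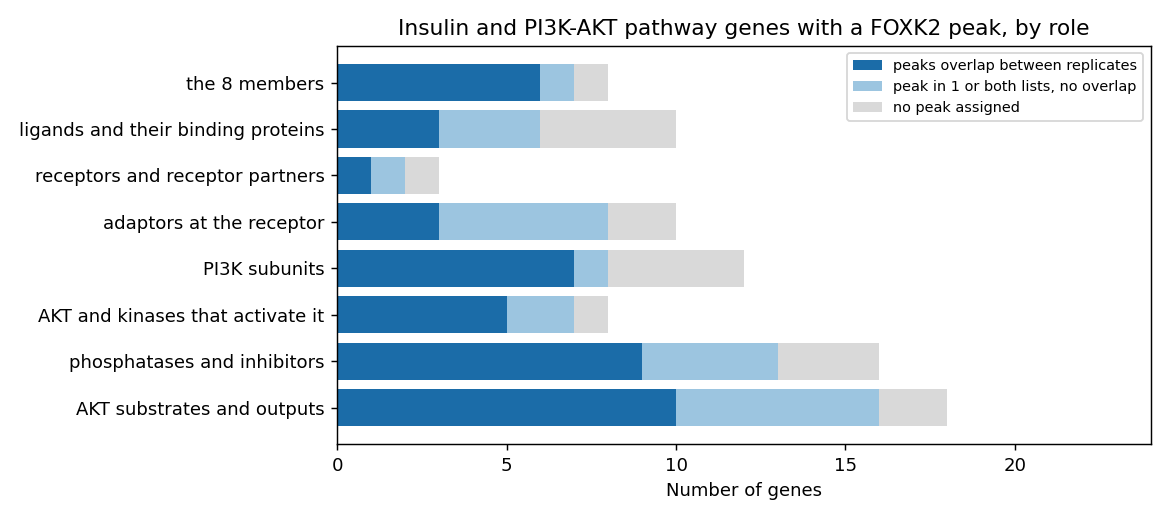
Number of genes in each role of the pathway (bars, genes), divided into those with a peak that overlapped between replicates (dark blue), with peaks but no overlap (light blue) and with no peak assigned (grey). The top bar is the 8 genes themselves, 6 of them dark blue, and the other bars leave these 8 out.

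Pathway genes were ordered by their best pair's average percentile over the 2 lists. Of the first 10, 3 were phosphatases or inhibitors and 3 were AKT substrates or outputs. These roles held 9 and 10 of the 38 genes with a shared peak, so both counts were near the roles' share. TRIB1, a pseudokinase scaffold, was first, with a promoter pair at scores of 26.8 (rank 125) and 52.1 (rank 133) and with 7 and 10 peaks in all. TSC1, which restrains mTOR together with TSC2, followed with a promoter pair at 24.7 and 46.7. FOXO3, a forkhead factor that AKT keeps out of the nucleus, had an intergenic pair just upstream of its TSS at 24.1 and 42.4. Each of these pairs held TGTTTAC in replicate 2, the list searched for the pathway genes.

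IGFBP3, a binding protein of the insulin-like growth factors, came next with an intergenic pair at 21.1 and 46.0. Its distance from the TSS was -57133 bp in replicate 1, where minus means upstream. PTPN1, a tyrosine phosphatase that acts on the insulin receptor, scored 16.6 and 32.4 at a distal upstream pair, with TGTTTAC in replicate 2. The best shared peaks of these 5 genes scored above that of IGF1R by name in replicate 1, and in replicate 2 all but that of PTPN1 did. EIF4EBP1, a repressor of translation downstream of mTOR, scored 13.0 and 24.2, and PIK3IP1, an inhibitor of PI3K, scored 11.7 and 25.4 in an intron pair with TGTTTAC in replicate 2. MLST8, a subunit of the mTOR complexes, had a promoter pair at 13.8 and 18.1. GRB10, an adaptor that dampens receptor signalling, scored 14.1 and 17.7, and PIK3CB, the beta catalytic subunit, scored 12.1 and 18.9. Both pairs were far upstream, with TSS distances in replicate 1 of -252480 bp for GRB10 and -64531 bp for PIK3CB.

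No peak in either list was assigned to 17 pathway genes, or 22.1%, while 45.6% of all protein-coding genes had none. These were the ligands INS and IGF2 and the binding proteins IGFALS and IGFBP2, the receptor IGF2R, the adaptors IRS4 and SHC1, and the PI3K subunits PIK3C2B, PIK3R2, PIK3R5 and PIK3R6. They also included PRR5, a partner of mTOR, the phosphatase genes INPP5D, INPPL1 and PPP2R1A, and the AKT substrates AKT1S1 and BAD. As at AKT1, the absence of a name in the lists does not exclude a peak inside or near the gene that was assigned to a neighbour.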

How the data were processed

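Per the labels and the paper's methods, the authors mapped single-end ChIP-seq reads to hg38 with Bowtie2 2.2.6 and called FOXK2 peaks in each replicate with HOMER 4.10. The study's supplement describes a test of peaks against input, of which the deposited columns hold no values. Whether input entered the HOMER calls is not given in the sources used here. The deposited lists give a peak score, a focus ratio (a fraction) and the distance to the nearest TSS, each for every peak. All deposited scores under 10 were whole multiples of a fixed step (tolerance 0.005), 0.1886 in replicate 1 and 0.1487 in replicate 2, and each score was divided by its step to give a count. The score intervals assume that 1 step is 1 tag, which the files do not state. The weakest peak held 16 steps in replicate 1 and 21 in replicate 2.

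Peaks were taken by gene name, and overlap needed 1 bp. Score intervals are exact Poisson intervals and share intervals are Wilson intervals, both at 95%, covering counting error only. Peaks have no test here, as there was 1 condition. Protein-coding genes were matched to RefSeq (GRCh38.p14), where 3200 peaks of replicate 1 and 7366 of replicate 2 had no match, and positions came from GENCODE 44. Motif and overlap steps were tested on simulated data. Apart from planted sites, the simulated sequences held only G and C, so matches arising by chance were not tested. Genes were named by rule: all 8, the 10 pathway genes highest by average percentile, the unbound pathway genes, and the 3 names most like IGF1R. The genes, lists and rules were chosen with earlier results of these data known, and the PIK3CA start sequence after its values were seen. Some items are not reported here. Alternatives were stricter overlap, equally long lists, only the stronger peaks of each list, TSS distance limits, assignment by position, other motif windows and heptamers, and each replicate alone. Python 3.11.15, numpy 2.4.6, pandas 2.3.3, scipy 1.17.1, pysam 0.24.0, samtools 1.23.1 and matplotlib 3.10.9 were used.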

Additional observations from a re-analysis of the deposited data

Results flagged for a closer look

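Peaks that lay in a gene or up to 10000 bp upstream of it, overlapped between the replicates and carried another gene's name were outside the counts by name. In replicate 2 there were 4 at IGF1R and 1 at INSR, 1 at PIK3CA, 1 at AKT1 and 1 at AKT2. They included the IGF1R intron 2 peak at a score of 81.6 and the PIK3CA start peak at 26.0. The INSR peak, in intron 11 and a DNA transposon, scored 3.87, among the weakest of its list.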

How the results depend on the processing

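Over 53 alternative values, 50 stayed within the spread set for them, which for counts was a 1.5-fold change, and 3 moved. All 3 were the count of pathway genes with a shared peak, 38 as reported. It was 22 with the upper 50% of each list by score, 22 with peaks within 10000 bp of the TSS, and 59 with replicate 2 alone, where no overlap was asked for. The share of all protein-coding genes at the settings that gave 22 is not given here. The 25.5% of the full lists is therefore no measure for them. With each replicate alone the count of pathway genes ran from 43 to 59, and the 43, with replicate 1 alone, was within the spread. Of all protein-coding genes, 31.3% had a peak in replicate 1 and 51.7% in replicate 2. The count of the 8 genes with a shared peak was 6 as reported, and ran from 4 within 10000 bp of the TSS, where IRS1 and PIK3R1 were lost, to 7 by position up to 10000 bp upstream. The 4 lay at the limit of the spread for counts, and no matching share of all genes is given for it. Even a rise from 6 to all 8 genes would have stayed within that spread, so the check could not register a rise. For the 7, the share of all genes was 29.1%. With 1000 bp upstream, an alternative chosen after seeing the data, the count of the 8 genes was 6, with PIK3CA in place of PIK3R1. Peaks of the 8 genes with an overlap lay between 62.5% and 77.8% for replicate 1 and between 45.5% and 71.4% for replicate 2. Those with TGTTTAC lay between 37.5% and 57.1% for replicate 1 and between 40.9% and 53.3% for replicate 2. Those with any of 4 forkhead heptamers were 56.2% and 63.6%, against 47.6% and 45.9% of all peaks. Apart from these heptamers and the stricter overlap in replicate 2, no share of all peaks is given for the changed settings. The shares of all peaks in the full lists are therefore no measure for these ranges. The IRS2 promoter pair was lost when an overlap of at least 50% of the shorter peak was asked for, and IRS2 kept its exon 1 pair. No paired analysis was possible because the inputs, which carry the same replicate numbers, were not analysed here. With 2 replicates and unknown read depth, a peak absent from 1 list is not shown to be unbound there.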

Other observations

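Related genes of the pathway, chosen here after their values were seen, differed in where their shared peaks lay. All 4 FOXO genes had one, against 25.5% of all protein-coding genes and 55.6% of the AKT substrates and outputs among which they were listed: FOXO3 with scores of 24.1 and 42.4 in replicates 1 and 2, FOXO6 with 7.36 and 8.92, FOXO1 with 6.79 and 11.5, and FOXO4 with 4.15 and 6.99. The pairs of FOXO1 and FOXO4 were in the promoter class and those of FOXO3 and FOXO6 were intergenic. PDPK1, a kinase that phosphorylates AKT, had 1 peak in replicate 2 alone.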
